A study of Mus musculus with 5 samples.

Results

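The genes described here are 7 members of the major histocompatibility complex (MHC) class II pathway, taken by symbol from the 27998 genes of the deposited mouse matrices: Cd74, H2-Aa, H2-Ab1, H2-Eb1, H2-DMa, H2-DMb1 and Ciita. They were followed through 4 gates of Lin- KIT+ primary marrow cells of Wild type C57BL/6 mice, each profiled as single cells with a droplet-based 3' RNA kit that counts unique molecular identifiers (UMIs). LSK cells were Lin-SCA1+KIT+, the compartment that holds the blood stem cells. The other gates were Lin-KIT+SCA1- and were divided by CD34 and the Fc gamma receptors: common myeloid progenitors (CMP) were CD34+CD16/32-, granulocyte/monocyte progenitors (GMP) were CD34+CD16/32+, and megakaryocyte/erythroid progenitors (MEP) were CD34-CD16/32-. All were healthy control animals, no treatment is named, and neither the age nor the number of mice is given in the sources used here.

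After a filter on cells, 10870 LSK, 3713 CMP (of 12185 stated CMP cells, the others not analysed here), 8027 GMP and 6284 MEP cells remained, with 75167959, 26919088, 73362645 and 80273121 UMIs and medians of 5991.5, 6904, 9100 and 12578 UMIs per cell. The labels list 5 samples, but the 2 CMP samples held identical matrices and were counted as 1 sample, so each gate was 1 library, no difference has a replicate check, and no test was run. Gate and library cannot be told apart. Between 36 and 130 cell barcodes were shared by any pair of libraries, and the summed class II level without them was 963 CPM in LSK cells, 799 in CMP cells, 231 in GMP cells and 123 in MEP cells, against 968, 800, 231 and 123 CPM with them. The gate antigens followed the labels: Ly6a, which encodes SCA1, had 78.2 CPM (its UMIs scaled to a common library total) in LSK cells, 1.49 in CMP cells, 1.10 in GMP cells and 0.112 in MEP cells, and Cd34 had 399 CPM in LSK cells, 234 in CMP cells, 118 in GMP cells and 0.498 in MEP cells. Fcgr3, which encodes CD16, had 0.838 CPM in LSK cells, 13.9 in CMP cells, 208 in GMP cells and 0.149 in MEP cells.

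MHC class II molecules are pairs of an alpha and a beta chain that display peptides from endocytosed protein to CD4+ T cells. The invariant chain, encoded by Cd74, guides the new pair to the endosome and fills its groove until the DM chaperone exchanges the remnant for a peptide. Dendritic cells, B cells and activated macrophages are the usual carriers, and the coactivator CIITA, recruited by RFX, CREB and NF-Y bound to the X and Y boxes of the promoters, turns the genes on together.

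The shared promoter elements can be read in the sequences. RefSeq promoter windows (GRCm38.p6, 250 bases before to 50 after each gene start) were matched for H2-Aa, H2-Eb1, H2-DMa and H2-DMb1. Both strands of all 32851 windows were searched for CTNNNAAC, the core of an X box, and for GATTGG, the core of a Y box; the letters and the spacing were chosen after these windows had been read. CTNNNAAC was in 41.1% of windows and GATTGG in 16.1%. The pair on 1 strand, with 20 to 30 bases between the motifs and no overlap, was in 51 windows of 48 genes, or 0.155%. Among those were 3 members and 2 further class II chain genes, of which 4 are shown to let the spacing be compared, with the motifs in capitals and the gene's own strand read 5′ to 3′.
H2-Aa: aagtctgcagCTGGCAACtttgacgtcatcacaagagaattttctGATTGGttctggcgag
H2-Eb1: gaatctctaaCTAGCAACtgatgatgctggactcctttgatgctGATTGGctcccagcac
H2-DMb2: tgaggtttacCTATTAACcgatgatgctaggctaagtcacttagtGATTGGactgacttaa
H2-Ob: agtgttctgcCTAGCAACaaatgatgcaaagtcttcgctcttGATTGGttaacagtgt
These are chr17:34287857-34287917 (minus strand) for H2-Aa, chr17:34305763-34305822 for H2-Eb1, chr17:34145113-34145173 for H2-DMb2 and chr17:34238805-34238862 for H2-Ob (plus strand for these 3). The gap was 27 bases in H2-Aa, H2-DMb1 and H2-DMb2, 26 in H2-Eb1 and 24 in H2-Ob, and the X core began 84 to 126 bases before the start that the RefSeq window uses. For H2-DMb1 that start is 34153191, and its pair lies after the first base of the GENCODE gene given next. The spaced pair was not found in the 2 windows of H2-DMa or in those of H2-Oa and H2-Eb2, which says only that these letters were not there. A match is a description of sequence and not of a bound site.

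On GRCm38, 5 of the 7 genes lie in the MHC region of chromosome 17: H2-DMa at chr17:34119541-34139101, H2-DMb1 at chr17:34153072-34160230, H2-Ab1 at chr17:34257689-34269419 and H2-Eb1 at chr17:34305867-34316674 on the plus strand, and H2-Aa at chr17:34282744-34287823 on the minus strand. Cd74 lies at chr18:60803848-60812652 and Ciita at chr16:10480059-10528418, both on the plus strand. H2-Eb1, H2-DMa and Ciita overlap genes on the opposite strand, and whether the counting used strand is not given in the sources used here. On their own strand, Cd74 overlaps Mir5107 and H2-DMa overlaps CR974462.3. Reads of H2-DMb1 may be split with its near relative H2-DMb2, so the level of each is uncertain.

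The classical chains and the invariant chain were high in the LSK and CMP libraries and low in GMP and MEP. Cd74 had 238 CPM in LSK cells (95% interval 234 to 241), 214 in CMP cells (208 to 219), 9.23 in GMP cells (8.55 to 9.95) and 18.8 in MEP cells (17.9 to 19.8). H2-Aa, the alpha chain of I-A, had 139 CPM in LSK cells, 108 in CMP cells, 5.22 in GMP cells and 7.03 in MEP cells. Both genes thus ran in CPM from LSK through CMP and MEP to GMP, but their order in LSK and CMP flipped with median-of-ratios factors, at log2 ratios of -0.22 and -0.02. GMP lay below MEP for H2-Aa only with the cells richest in class II, described further on, and above it without them. In such sums, fewer cells with a gene and less of its RNA per cell cannot be told apart. H2-Eb1, the beta chain of I-E, had the same order with 69.7 CPM in LSK cells, 32.8 in CMP cells, 1.47 in GMP cells and 3.14 in MEP cells. H2-Ab1, the beta chain of I-A, also had that order, but over a smaller range, with 187 CPM in LSK cells, 146 in CMP cells, 34.3 in GMP cells and 47.0 in MEP cells. For H2-Ab1 too the order of LSK and CMP flipped with median-of-ratios factors. Intervals here and below are exact 95% intervals that cover counting error only.

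The DM chaperone genes had another pattern, with GMP well above MEP. H2-DMa, the alpha chain of DM, had 263 CPM in LSK cells (259 to 266), 233 in CMP cells (228 to 239), 123 in GMP cells (121 to 126) and 40.3 in MEP cells (39.0 to 41.8). Its order in LSK and CMP flipped with TMM and median-of-ratios factors, which shift that log2 ratio by -0.31 and -0.38. H2-DMb1, a beta chain of DM, had 70.1 CPM in LSK cells (68.2 to 72.0), 65.2 in CMP cells (62.2 to 68.4), 57.5 in GMP cells (55.8 to 59.3) and 6.65 in MEP cells (6.10 to 7.24). The LSK and CMP intervals of H2-DMb1 overlapped at their edges, and GMP lay just under them, though LSK lay below GMP with median-of-ratios factors, at a log2 ratio of -0.25. Ciita was barely sampled, with 167 UMIs in LSK cells (2.22 CPM), 30 in CMP cells (1.11 CPM), 2 in GMP cells (0.0273 CPM) and 17 in MEP cells (0.212 CPM).

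**Figure D1:**
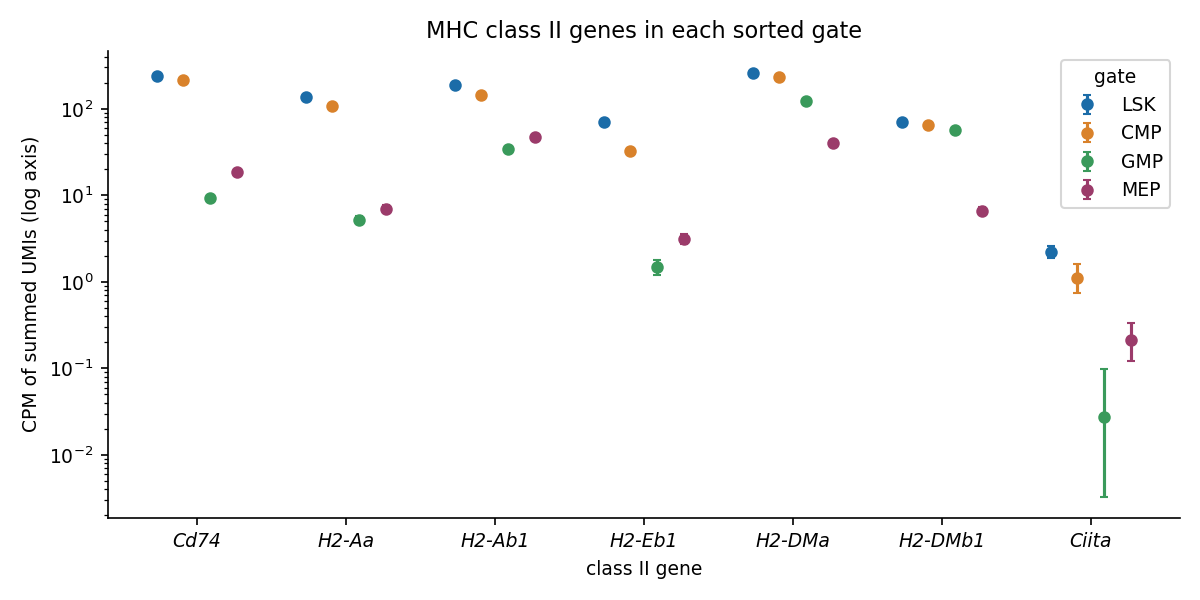
CPM of the summed UMIs of each class II gene (log axis) in LSK, CMP, GMP and MEP, 1 library each, with exact 95% Poisson intervals. Cd74, H2-Aa and H2-Eb1 sit more than 10-fold lower in GMP than in CMP, whereas H2-DMb1 has 65.2 CPM in CMP and 57.5 CPM in GMP.

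The size rule for a higher gene asked for a level of at least 50 CPM on the higher side and a ratio of at least 2. In LSK over CMP it took 1 of the 7 members, H2-Eb1, with a log2 ratio of 1.09 (interval 0.99 to 1.19), beside 6.12% of the genes with 50 CPM in either library, and none was higher in CMP, beside 2.72%. It passed no longer with TMM or median-of-ratios factors, at 0.77 and 0.71. The factors shift all LSK over CMP ratios by -0.31 and -0.38, and the summed class II ratio of 0.28 then becomes -0.04 and -0.10, so no direction between the LSK and CMP libraries is drawn for the sum.

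In CMP over GMP, 3 members were higher in CMP (Cd74, H2-Aa and H2-Ab1), beside 4.03% of genes in that direction, while H2-Eb1 stayed under 50 CPM, and none was higher in GMP, beside 2.92%. In CMP over MEP, 5 were higher in CMP, the same 3 with H2-DMa and H2-DMb1, beside 11.3% of genes, and none was higher in MEP (10.5%). LSK over GMP gave 5 (all members with 50 CPM but H2-DMb1) beside 13.3%, with none higher in GMP (7.49% of genes), and LSK over MEP gave 6 beside 16.4%, with none higher in MEP (13.5%). H2-DMa passed no longer in LSK over GMP with TMM or median-of-ratios factors, which shift those ratios by -0.45 and -0.54. GMP over MEP gave 2, H2-DMa at a log2 ratio of 1.61 and H2-DMb1 at 3.11, beside 12.2% of genes, and none was higher in MEP (12.1%). The classical genes ran the other way there, with Cd74 at -1.03, H2-Eb1 at -1.09, H2-Ab1 at -0.45 and H2-Aa at -0.43 (0.73 without the cells of 50 or more class II UMIs), and of these only Cd74 would be counted with a minimum of 10 CPM, beside 12.8% of genes. These comparisons share libraries, and the median log2 ratio of members with a mean of 1 CPM was 0.36 in LSK over CMP (0.33 over all such genes), 4.69 in LSK over GMP (0.44), 3.40 in LSK over MEP (0.36) and -0.44 in GMP over MEP (-0.12).

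Shares of cells separated LSK from CMP in a way the library levels did not. Cd74 had a UMI in 44.9% of LSK cells, 9.16% of CMP cells, 0.660% of GMP cells and 1.81% of MEP cells. After every cell was thinned to 2000 UMIs, which left out 36 CMP cells and no other, Cd74 had a UMI in 25.0% of LSK cells, 4.81% of CMP cells, 0.237% of GMP cells and 0.573% of MEP cells. The CMP library thus had close to the LSK level of Cd74 from a far smaller share of its cells. H2-Aa had a UMI in 41.1% of LSK cells, 6.84% of CMP cells, 1.28% of GMP cells and 1.34% of MEP cells before thinning, and H2-Eb1 in 26.6%, 3.96%, 0.262% and 0.875% of them. H2-DMa was the most widely found member, in 76.6% of LSK cells, 74.3% of CMP cells, 61.1% of GMP cells and 38.7% of MEP cells. Free RNA also gives UMIs, and it is particular to a library, so the share in one gate is no background for another. LSK barcodes with 1 to 99 UMIs, far below the cells, held Cd74 at 242 CPM (215 to 272) and those with 100 to 646 UMIs at 255 CPM, against 238 CPM in the cells. All 7 genes summed to 1104 CPM in the barcodes with 100 to 646 UMIs, against 968 CPM in the cells, and the part of free RNA in the LSK shares was not tested.

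The sum of the 7 genes was also counted per cell. The median LSK cell had 4 class II UMIs, the median CMP and GMP cells 2, and the median MEP cell 1. There were 2028 LSK, 131 CMP, 30 GMP and 22 MEP cells with 10 or more, and they held 52.9% of the class II UMIs of LSK (interval 52.5 to 53.2), 12914 of 21530 UMIs in CMP, 9.69% of those of GMP (9.25 to 10.1) and 29.4% of those of MEP (28.5 to 30.3). In LSK those counts ran on from the bulk of the cells, with 890 cells at 8 or 9 UMIs and 577 at 10 or 11. In CMP the counts also ran on past the limit, with 55 cells at 8 or 9 UMIs and 19 at 10 or 11, but 91 of the 131 cells had 50 or more. In MEP 4 cells had 8 or 9 UMIs and 0 had 10 or 11, and 20 of the 22 had 50 or more.

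**Figure D2:**
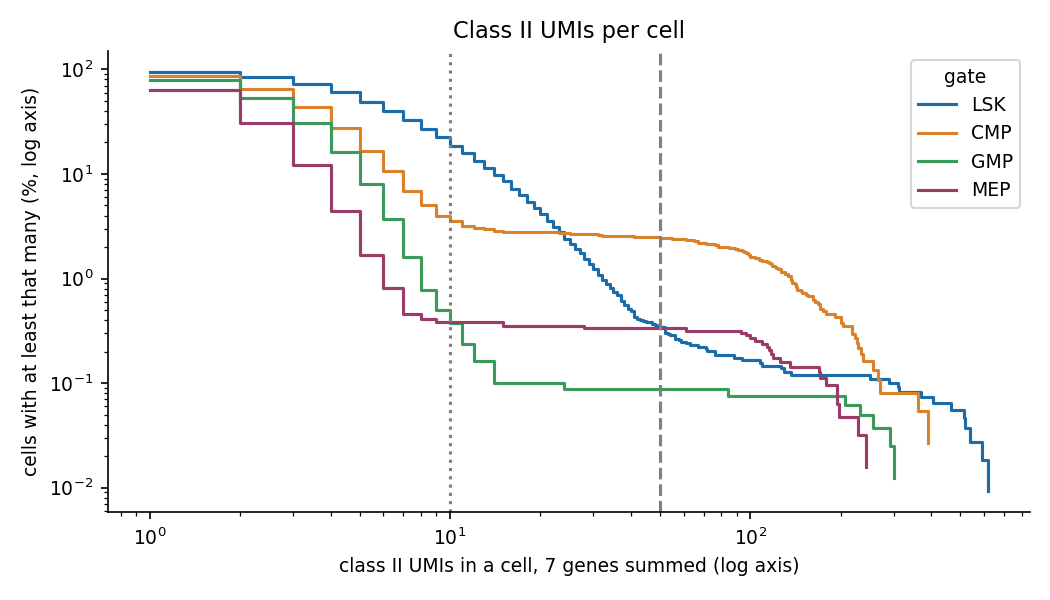
Share of cells (%, log axis) with at least a given number of class II UMIs (7 genes summed, log axis) in LSK, CMP, GMP and MEP; the dotted and dashed lines mark 10 and 50 UMIs. The CMP and MEP curves are flatter between 10 and 50 UMIs, with 131 and 91 CMP cells and 22 and 20 MEP cells at or above the lines, while the LSK curve falls through that range from 2028 to 33 cells.

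A second limit of 50 class II UMIs was chosen after the data were seen. It lay in an empty stretch of the counts in GMP and MEP but not in LSK or CMP: 6 LSK cells lay within 2 UMIs below it and none above, 2 CMP cells lay that close above it and 1 below, and no GMP or MEP cell lay so near. It took 33 LSK, 91 CMP, 6 GMP and 20 MEP cells, or 0.304%, 2.45%, 0.0747% and 0.318% of the cells. In CMP these 91 cells held 84.2% of all UMIs of Cd74, H2-Aa, H2-Ab1 and H2-Eb1, against 13.6% in the 33 LSK cells, 35.2% in the 6 GMP cells and 45.3% in the 20 MEP cells. The groups are ranges of a count and not cell types. Of them, 2 LSK and 9 CMP cells and no GMP or MEP cell were among the called doublets. Their median depth was 7619 UMIs in LSK cells, 5218 in CMP cells, 5097.5 in GMP cells and 4525.5 in MEP cells, against 5987, 6979.5, 9101 and 12609 in the other cells.

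Inside these cells the class II genes were high in all 4 gates, which is built in, since the cells were taken by the sum of these genes. Cd74 and H2-Aa were highest in the 6 GMP cells. Cd74 had 10441 CPM in LSK cells, 10729 in CMP cells, 20426 in GMP cells and 9732 in MEP cells, and H2-Aa had 4591 CPM in LSK cells, 5388 in CMP cells, 9170 in GMP cells and 3454 in MEP cells. Ciita had 65.0 CPM in LSK cells, 44.4 in CMP cells, 66.2 in GMP cells and 76.9 in MEP cells, although a UMI of it was in only 11 of 33, 17 of 91, 2 of 6 and 8 of 20 cells.

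Outside them Cd74, H2-Aa and H2-Eb1 were low in CMP, GMP and MEP and stayed high in LSK. Cd74 had 198 CPM in the remaining LSK cells (195 to 201), 16.4 in CMP (interval 14.9 to 18), 0.818 in GMP cells (0.624 to 1.05) and 1.49 in MEP cells (1.23 to 1.78). H2-Eb1 had 62.4 CPM in LSK cells, 2.50 in CMP cells, 0.218 in GMP cells and 0.499 in MEP cells. For H2-Aa the values were 121 CPM in LSK cells, 9.20 in CMP cells, 1.45 in GMP cells and 0.874 in MEP cells. Without these cells the LSK over CMP log2 ratio was 3.59 for Cd74, 3.72 for H2-Aa and 4.64 for H2-Eb1, and 4 members instead of 1 passed the size rule, beside 6.32% of genes in the same cells. CMP over GMP gave 0 members in place of 3, beside 3.90% of genes, and CMP over MEP gave 1 in place of 5, beside 11% of them. The cells were removed by the sum of the members themselves, so part of these changes is built in.

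The DM genes depended less on these cells. H2-DMa had 632 CPM inside and 261 CPM outside them in LSK, 867 and 221 in CMP, 894 and 123 in GMP, and 329 and 39.8 in MEP. H2-DMb1 had 574 CPM inside and 68.2 outside in LSK, 885 and 49.8 in CMP, 1357 and 57.0 in GMP, and 343 and 6.05 in MEP. The outside values of H2-DMa lie close to the library levels. H2-DMb1 was lower in CMP than in GMP once the rich cells were left out, at a log2 ratio of -0.19 in CMP over GMP, against 0.18 with them.

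**Figure D3:**
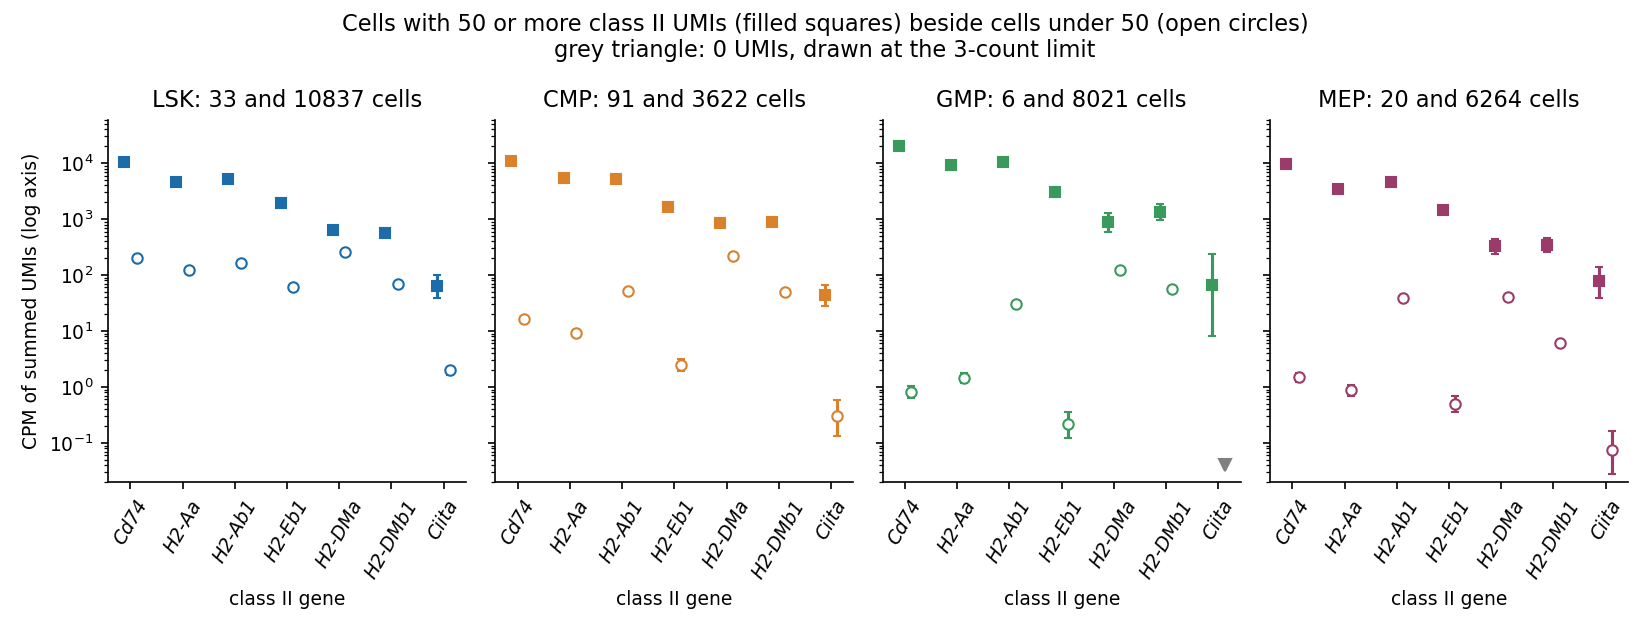
CPM of each class II gene (log axis) in cells with 50 or more class II UMIs (filled) and in the remaining cells (open) of LSK, CMP, GMP and MEP, with exact 95% Poisson intervals. Outside the rich cells Cd74 spans 198 CPM in LSK to 0.818 CPM in GMP, while H2-DMa spans 261 CPM in LSK to 39.8 CPM in MEP.

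H2-Ab1 did not follow its partner H2-Aa in the GMP and MEP cells. Outside the cells with 50 or more class II UMIs, H2-Ab1 had 168 CPM in LSK cells, 52.2 in CMP cells, 30.1 in GMP cells (28.8 to 31.4) and 38.8 in MEP cells (37.4 to 40.2). There were 0.847 H2-Ab1 UMIs for each Cd74 UMI in those LSK cells, 3.19 in CMP cells, 36.8 in GMP cells and 26.1 in MEP cells, whereas inside the rich cells the number was 0.495 in LSK cells, 0.477 in CMP cells, 0.507 in GMP cells and 0.476 in MEP cells. For each H2-Aa UMI there were 1.38 H2-Ab1 UMIs outside the rich cells in LSK cells, 5.68 in CMP cells, 20.8 in GMP cells and 44.4 in MEP cells, against 1.13, 0.9498, 1.13 and 1.34 inside them. Set against Cd74 the number outside was thus higher in GMP than in MEP, and set against H2-Aa higher in MEP. For Cd74 the number outside was 1.71 times that inside in LSK, 6.68 times in CMP, 72.4 times in GMP and 54.9 times in MEP. At 2000 UMIs per cell, H2-Ab1 was found in 27.1% of these LSK cells, 10.4% of CMP, 5.93% of GMP and 7.68% of MEP, against 19.8%, 1.62%, 0.349% and 0.271% for H2-Aa. Whether the H2-Ab1 counts of GMP and MEP come from the same transcript as those of LSK was not tested, since the matrices hold 1 count per gene.

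**Figure D4:**
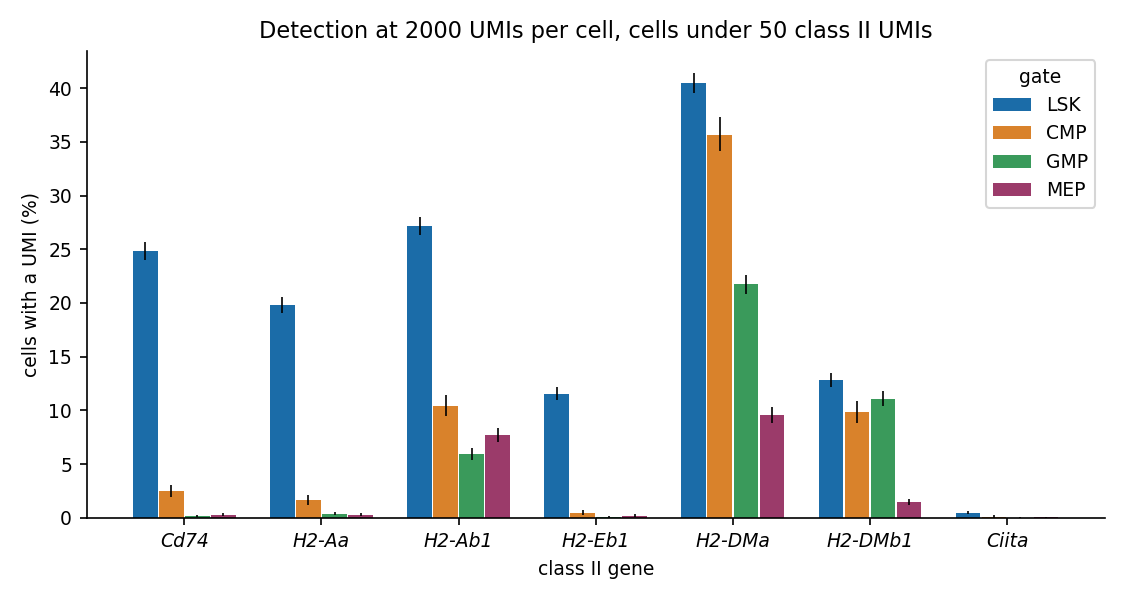
Share of cells (%) with a UMI of each class II gene after thinning to 2000 UMIs, in cells with under 50 class II UMIs of LSK, CMP, GMP and MEP, with exact 95% Clopper-Pearson intervals. H2-Ab1 is found in 7.68% of MEP cells, where Cd74 is in 0.255% and H2-Aa in 0.271%.

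Within LSK the classical members were found together, and the DM genes less so. With doublets removed and cells with 50 or more class II UMIs left out, 9894 LSK cells thinned to 2000 UMIs were compared. Cd74 was found in 47.3% of cells with and 18.9% of cells without an H2-Aa UMI, and H2-Eb1 in 26.9% with and 7.72% without. H2-Ab1 was found in 42.9% with and 22.8% without H2-Aa. H2-DMb1 was found in 16.8% with and 11.7% without H2-Aa. H2-DMa was found in 43.9% with and 39.9% without H2-Aa, and in 41.9% with and 40.5% without H2-DMb1, its own partner. In the GMP cells H2-DMa was in 18.9% of cells with and 22.1% of cells without H2-DMb1. Cell type and depth before thinning are shared by such pairs and were not removed.

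After thinning, LSK cells with more class II UMIs had more RNA of Hlf and Procr and less of Mpo, Mki67 and the erythroid genes. The cells, thinned to 2000 UMIs, the 33 richest left out, were grouped by class II UMIs into 2854 cells with 0, 5136 with 1 to 2, 1749 with 3 to 4, 921 with 5 to 9 and 177 with 10 to 27. Hlf, a transcription factor of stem cells, had 277, 312, 333, 434 and 571 CPM in that order, and Procr, the surface receptor EPCR of stem cells, had 59.0, 61.9, 81.5, 110 and 186 CPM. The summed list of 7 stem cell and multipotent markers had 709, 768, 842, 1069 and 1373 CPM. Both genes and the list were thus highest in the class II-richest group. Without thinning the order was not found: in cells with 0, 1 to 4, 5 to 9, 10 to 19 and 20 to 49 class II UMIs, Hlf had 328, 278, 251, 266 and 297 CPM and Procr 68.3, 56.8, 52.0, 59.0 and 74.9 CPM. The median depth of those groups was 4178, 5333, 6903.5, 7635 and 7110 UMIs.

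Mpo, Mki67 and the erythroid list had the opposite order. Mpo, the myeloperoxidase of granules, had 92.9, 88.7, 56.6, 27.1 and 19.8 CPM from the poorest to the richest group, but 56.7, 105, 114, 93.9 and 68.1 CPM in the unthinned groups. Mki67, a marker of cycling cells, had 96.2, 79.0, 50.9, 30.4 and 19.8 CPM. The summed erythroid list of 7 genes had 48.0, 29.0, 21.7, 16.3 and 5.65 CPM. The neutrophil granule list moved less, with 689, 689, 626, 568 and 540 CPM. The T and natural killer cell list also fell at each step, from 338 CPM in the poorest group to 119 CPM in the richest. Of its 6 genes, 2 reached 10 CPM and 1 reached 50 CPM in the LSK or CMP library, so that sum rests on few genes. The basophil and mast cell list fell from 130 to 86.9 CPM over the first 4 groups and was 96.0 CPM in the richest. Some other lineages did not have that order. Pf4, platelet factor 4, had 112, 68.6, 67.8, 87.4 and 138 CPM, and the megakaryocyte list 196, 137, 124, 138 and 206 CPM. The monocyte list had 104, 114, 109, 105 and 178 CPM, and the plasmacytoid dendritic cell (pDC) list 347, 352, 356, 396 and 444 CPM. Dntt, the terminal transferase of lymphoid precursors, was even over the first 4 groups at 210, 240, 251 and 233 CPM and lower in the richest, at 93.2 CPM, while in the unthinned groups it had 152, 198, 299, 371 and 406 CPM, the opposite direction. The conventional dendritic cell (cDC) list had 494, 507, 512, 482 and 571 CPM, nearly all of it Cst3, and Batf3 had at most 1 UMI in any group. The median depth before thinning was 6335.5, 6123.5, 5821, 5251 and 4476 UMIs in these groups, and its part in the result was not tested.

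**Figure D5:**
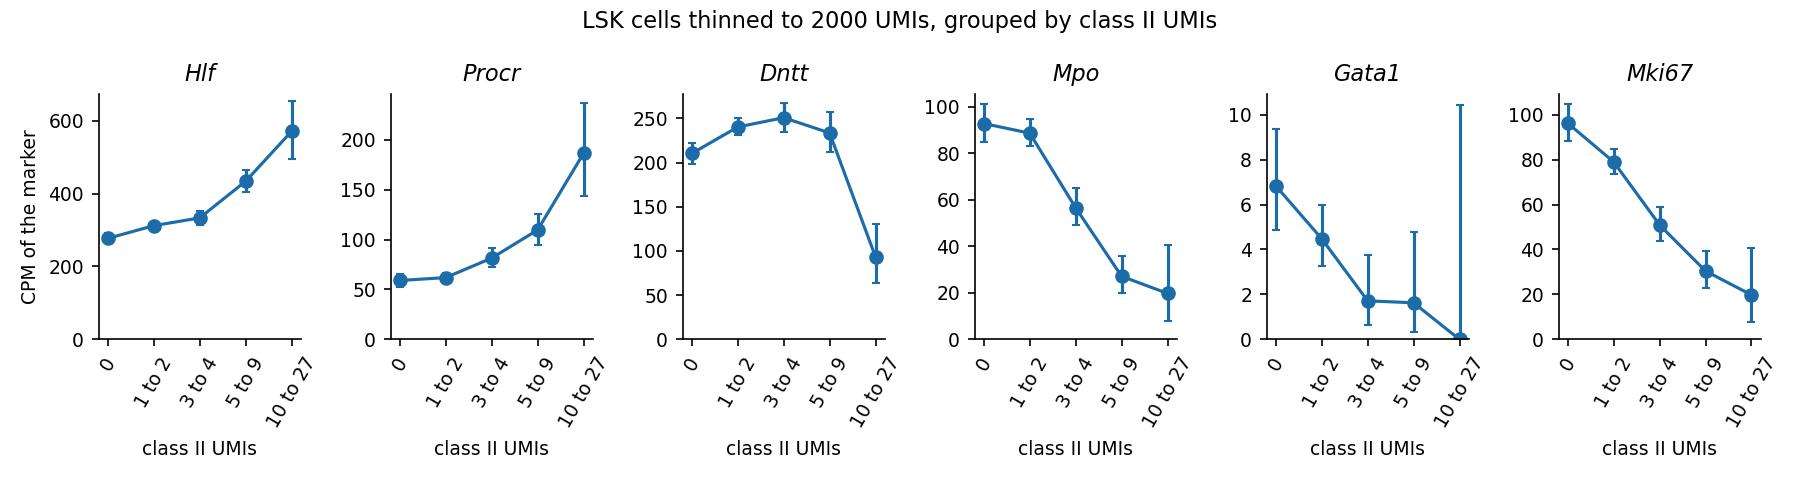
CPM of 6 marker genes in LSK cells thinned to 2000 UMIs and grouped by their class II UMIs, from 0 to 10 or more, with exact 95% Poisson intervals and axes from 0; cells with 50 or more class II UMIs before thinning are left out. Hlf and Procr are highest, at 571 and 186 CPM, and Mpo and Mki67 lowest, both at 19.8 CPM, in the richest group.

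Seen from the markers, the summed class II level of these thinned LSK cells was 1098 CPM with and 867 CPM without a Hlf UMI, at a log2 ratio of 0.34 (interval 0.30 to 0.38), and 1236 with and 925 without Procr. It was 710 CPM with and 996 without Mpo, 677 with and 998 without Mki67, and 539 with and 967 without Gata1, the erythroid and megakaryocyte factor. Dntt and Flt3, the lymphoid-primed genes, made little difference, at 938 and 970 CPM with and without Dntt and 990 and 956 CPM with and without Flt3. Median depths before thinning were 5272.5 UMIs with and 6606 without Hlf, and 4927.5 and 6191 for Procr. They were 7997 and 5809.5 UMIs with and without Mpo, 9317 and 5803 for Mki67, and 7818 and 5983 for Gata1. The part of depth in these differences was not tested. Over all LSK cells without thinning, the Hlf comparison had the other sign, with 946 CPM in cells with and 1026 CPM in cells without a Hlf UMI. It was 915 and 790 CPM once the 33 richest cells were left out. They were left out by the class II sum itself, so part of this change of sign is built in.

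The members did not share in this equally. Cd74 had 300 CPM in the thinned LSK cells with and 192 CPM in those without Hlf, H2-Aa 166 and 116 CPM, and H2-Eb1 87.7 and 59.8 CPM. H2-Ab1 was closer, at 191 and 170 CPM, and H2-DMa had 273 and 263 CPM with intervals of the log2 ratio from -0.02 to 0.13. In LSK cells with and without Mpo, Cd74 had 116 and 253 CPM, H2-Eb1 38.8 and 75.7 CPM, and H2-DMa 281 and 265 CPM. In cells with and without Mki67, Cd74 had 106 and 253 CPM and H2-DMa 232 and 272 CPM. The difference was thus large for Cd74, H2-Aa and H2-Eb1, and small for H2-DMa.

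CMP, GMP and MEP cells were split by markers in the same way, with the rich cells left out. In thinned CMP cells the sum was 436 CPM with and 340 CPM without an Irf8 UMI, the factor of the dendritic and monocyte lines, and 355 with and 442 without Mpo. Without thinning the same cells had 363 CPM with and 326 without Irf8, and 340 with and 446 without Mpo. With cells of 10 or more class II UMIs also left out, the unthinned sum was 334 CPM with and 323 without Irf8. That log2 ratio was 0.05 (interval -0.02 to 0.11), and the sum was 331 with and 329 without Mpo. Those cells were left out by the class II sum itself, so part of this last change is built in. The 11 CMP cells with 20 to 49 had Irf8 at 2655 CPM and Cst3 at 15125 CPM. In thinned GMP cells it was 241 with and 203 without Irf8, and 212 with and 258 without Ly6c2, a monocyte surface antigen, and without cells of 10 or more, unthinned, 220 and 179 CPM, and 206 and 269 CPM. In thinned MEP cells it was 244 CPM with and 97.9 CPM without Pf4, but without thinning 112 and 85.8 CPM. MEP cells with and without a Pf4 UMI after thinning had median depths of 5451 and 12818 UMIs.

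The cells with 50 or more class II UMIs carried genes of conventional dendritic cells, in LSK mainly 12 of the 33. Of 11 cDC markers, 9 were found in the LSK cells, 10 in CMP, 8 in GMP and 10 in MEP, with a summed level of 9343 CPM in LSK cells, 15733 in CMP cells, 17050 in GMP cells and 9200 in MEP cells, against 502 CPM in the other LSK cells, 920 in the other CMP cells, 1014 in the other GMP cells and 221 in the other MEP cells. Most of that was Cst3, cystatin C, but Batf3, a factor of cDC development, had 161 CPM inside and 0.147 outside in LSK, 248 and 0.946 in CMP, 232 and 0.0955 in GMP, and 133 and 0.112 in MEP. Naaa, an acid amidase of cDC, had 335 CPM inside and 3.57 outside in LSK and 284 and 3.22 in CMP. A marker was counted as found when it was not at 0, which is a weak condition. Of the 11 markers, 9 were at least 2-fold higher in the rich LSK cells than in the other LSK cells. That number was 8 for the CMP library and only 5 for GMP and 5 for MEP. The 2-fold count was not particular to cDC markers. Of 8 monocyte genes, 6 reached it for LSK, 5 for CMP, 3 for GMP and 5 for MEP. The share of all genes that reach it was not tested. Irf4 was at 0 in the rich cells of all 4 gates. The median rich cell had 64 Cst3 UMIs in LSK cells, 75 in CMP cells, 77 in GMP cells and 68.5 in MEP cells, against 3, 5, 8 and 2 in the other cells, and a median of 5, 18, 17 and 11.5 Irf8 UMIs. The median Batf3 count was 0 in the rich LSK cells, with a UMI in 16 of 33, and 1 in CMP cells, 1.5 in GMP cells and 1 in MEP cells.

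The 33 rich LSK cells were uneven. In 12 of them, with 251 to 618 class II UMIs each, lay 5189 of their 6849 class II UMIs. Batf3 had a UMI in 12 of those 12 cells, and the median cell had 158 Cst3 and 31.5 Irf8 UMIs. The other 21 cells had 52 to 137 class II UMIs, Batf3 in 4 of them, and medians of 6 Cst3 and 0 Irf8 UMIs. Hlf had 45.9 CPM in the 12 cells and 179 CPM in the 21. The rich LSK sums therefore mix a small set with many cDC marker UMIs and a larger one with few.

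Most markers of B cells and macrophages, the other usual carriers of class II, were at 0 in the rich cells. Of 8 B cell markers, Cd79b alone was found, in 8 LSK, 12 CMP and 2 MEP cells, and Cd79a, Ms4a1, Pax5 and Ebf1 were at 0 in all 4 gates. Of 7 macrophage markers, 1 UMI of Vcam1 in LSK was the sole count, and the list was at 0 in CMP, GMP and MEP. The monocyte and macrophage receptor gene Csf1r was at 0 in all of them. Siglech, a marker of pDC, was at 0 in LSK, GMP and MEP and had 2.02 CPM in CMP, and the pDC list had 338 CPM in LSK cells, 357 in CMP cells, 166 in GMP cells and 266 in MEP cells, mostly Bst2. The list of 8 monocyte genes had 930 CPM inside and 109 outside in LSK, 2035 and 830 in CMP, and 1237 and 1.76 in MEP. In GMP it was lower inside, at 1788 and 2309 CPM. Its genes differed, with Ccr2 at 239 CPM inside and 1.24 outside in LSK and 329 and 34.1 in CMP. F13a1 had 16.1 CPM inside and 102 CPM outside in CMP.

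RNA typical of each gate was lower in its rich cells than in its other cells. Hlf had 120 CPM in the rich LSK cells and 269 CPM in the others, and was at 0 in the rich CMP cells. Mpo had 266 CPM in the rich CMP cells and 1789 CPM in the others, and 596 CPM in the rich GMP cells and 4407 CPM in the others. Car1 had 2447 CPM in the rich MEP cells and 4517 CPM in the others, with a UMI in 19 of 20 of them, but the median rich MEP cell had 2 Car1 UMIs against 52 in the others. The part of free RNA in these values was not tested.

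By correlation over thinned cells, genes with r of 0.2 or more to the class II sum were found in CMP and MEP, and none in LSK or GMP. In CMP, over 3677 cells of 1 library, 34 genes did, led by Lgals3 (galectin-3, r = 0.66), Id2 (0.63), Aif1 (0.58), Lsp1 (0.50), Cst3 (0.49), Crip1 (0.46), S100a6 (0.45) and Psap (0.41). In MEP, over 6284 cells, 4 did: Tmsb4x (0.28), Coro1a (0.27), Cst3 (0.24) and Napsa (0.22). The highest was Malat1 at 0.16 in LSK and Tmsb10 at 0.10 in GMP. Without the cells with 50 or more class II UMIs only Lgals3 in CMP passed, at 0.24. Those cells were left out by the class II sum itself, so part of this fall is built in.

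Other genes of the class II pathway were read with lists chosen by role. The other class II chains included H2-Oa and H2-Ob, which form the DO modulator of DM. H2-Oa had 27.9 CPM in LSK cells, 18.8 in CMP cells, 6.39 in GMP cells and 4.76 in MEP cells, and H2-Ob had 31.3 CPM in LSK cells, 13.5 in CMP cells, 2.37 in GMP cells and 1.15 in MEP cells. Neither reached 50 CPM, but at 10 CPM both counted as higher in LSK and in CMP than in GMP or MEP, and H2-Ob in LSK than in CMP, beside 21.0%, 24.9%, 5.32%, 14.6% and 12.3% of genes. Unlike Cd74, they hardly depended on the rich cells, with H2-Oa at 17.3 CPM and H2-Ob at 12.8 CPM in CMP cells outside them. H2-DMb2 was at most 5.35 CPM and H2-Eb2 at most 0.532 CPM in any gate.

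The 7 loading and processing genes did not follow the chains. In any contrast 4 or 5 of the 7 reached 50 CPM in either library. None was counted as higher in LSK than in CMP (beside 6.12% of genes) or GMP (13.3%). In CMP over GMP 0 were higher in CMP, beside 4.03% of genes. Ctss and Psap, 2 of 5 with 50 CPM, were higher in CMP than in MEP (11.3% of genes) and in GMP than in MEP (12.2%). Ctss, the cathepsin that trims the invariant chain, had 39.3 CPM in LSK cells, 79.6 in CMP cells, 50.7 in GMP cells and 0.959 in MEP cells. It was higher in CMP than in LSK, beside 2.72% of genes. Psap, prosaposin, had 207 CPM in LSK cells, 197 in CMP cells, 194 in GMP cells and 51.0 in MEP cells. It was also higher in LSK than in MEP, beside 16.4% of genes. Ifi30, the lysosomal thiol reductase, was highest in MEP at 53.1 CPM, against 7.76 in LSK, 25.6 in CMP and 25.5 in GMP. It was the 1 gene of the list counted as higher in MEP than in LSK (13.5% of genes), CMP (10.5%) and GMP (12.1%). Ctsl had 33.6 CPM in LSK cells, 20.7 in CMP cells, 20.2 in GMP cells and 46.5 in MEP cells, Ctsb 94.1 CPM in LSK cells, 105 in CMP cells, 149 in GMP cells and 85.1 in MEP cells, and Ctsd 148 CPM in LSK cells, 110 in CMP cells, 127 in GMP cells and 147 in MEP cells, and these 3 cathepsins passed the rule in no contrast.

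Among 12 genes of the promoter complex and of inputs to Ciita, the NF-Y subunits and Creb1 varied less than Irf1 and Irf8. Nfya had 39.2 CPM in LSK cells, 31.1 in CMP cells, 21.3 in GMP cells and 21.9 in MEP cells, Nfyb 49.3 CPM in LSK cells, 58.4 in CMP cells, 47.2 in GMP cells and 60.8 in MEP cells, Nfyc 26.9 CPM in LSK cells, 30.7 in CMP cells, 28.4 in GMP cells and 30.7 in MEP cells, and Creb1 28.7 CPM in LSK cells, 23.6 in CMP cells, 27.3 in GMP cells and 20.5 in MEP cells. The RFX subunits had 10.2 CPM in LSK cells, 5.54 in CMP cells, 4.63 in GMP cells and 3.06 in MEP cells for Rfx5, 10.4, 6.06, 4.77 and 4.98 CPM for Rfxank, and 37.4 CPM in LSK cells, 16.8 in CMP cells, 24.5 in GMP cells and 67.6 in MEP cells for Rfxap, the one that was highest in MEP. Irf1, an interferon response factor, had 61.0 CPM in LSK cells, 35.7 in CMP cells, 13.4 in GMP cells and 3.10 in MEP cells. Spi1, which encodes PU.1, had 156 CPM in LSK cells, 223 in CMP cells, 251 in GMP cells and 6.03 in MEP cells, and Irf8 57.4 CPM in LSK cells, 624 in CMP cells, 495 in GMP cells and 3.10 in MEP cells, so that both were far lower in MEP and neither was highest in LSK. In any contrast 3 to 5 of the 12 reached 50 CPM in either library. By the 50 CPM rule Irf1, Spi1 and Irf8, 3 of 5, were higher in LSK than in MEP, beside 16.4% of genes. Irf1 alone was higher in LSK than in GMP, beside 13.3%. Spi1 and Irf8 were higher in CMP than in MEP (11.3% of genes) and in GMP than in MEP (12.2%). Rfxap was lower in CMP and in GMP than in MEP (10.5% and 12.1%). Irf8 was lower in LSK than in CMP (2.72% of genes) and GMP (7.49%). No gene of the list passed in CMP over GMP, beside 4.03% of genes higher in CMP and 2.92% higher in GMP.

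Turnover and costimulation genes were low. Of 8, March8, a ubiquitin ligase, reached 10 CPM in MEP at 16.7 CPM, against 4.86 in LSK, 3.08 in CMP and 3.50 in GMP, and Cd274, which encodes PD-L1, reached it in LSK at 10.4 CPM, against 2.90 in CMP, and 1.57 in GMP and 0.747 in MEP. The other 6 stayed below 10 CPM in all gates. In the rich cells Cd86, a costimulatory ligand, had 34.2 CPM in LSK cells, 50.4 in CMP cells, 66.2 in GMP cells and 21.0 in MEP cells, against 5.36 CPM in the other LSK cells, 1.78 in the other CMP cells, 0.600 in the other GMP cells and 0.0250 in the other MEP cells. March1, the ligase that removes class II from the surface of dendritic cells, had 30.8 CPM in rich LSK cells, 64.5 in rich CMP cells, 99.3 in rich GMP cells and 21.0 in rich MEP cells, and at most 0.273 CPM in the others.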

How the data were processed

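As deposited, each matrix has whole UMI counts for every gene in every barcode, with no scaling by the authors. Tools named are Cell Ranger 2.0.0, CASAVA 1.8.2 and Seurat 2.3.0, with the mm10 build, per the submitters' processing notes. Cell filters, annotation and use of strand were not given in the sources used here. The LSK matrix held 737280 barcodes, and those with 2110 or more UMIs were taken as cells (10883, against 10882 stated). The CMP matrix held 3738 barcodes, against 12185 cells stated; other CMP cells were not analysed here. A cell was kept from 500 genes upwards if mitochondrial genes took no more than 10% of its UMIs.

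UMIs were summed per library and scaled to CPM, with exact Poisson intervals; ratios have exact conditional binomial intervals and shares exact Clopper-Pearson intervals, all at 95% and for counting error only. A count under 3 was set to 3 in ratios. Nothing in the labels says that the libraries came from separate animals. Doublets stayed in the sums and were removed for co-detection by taking the highest scrublet scores, 0.8% per 1000 cells, or 945 LSK, 110 CMP, 515 GMP and 316 MEP cells; the caller's own threshold marked 1, 4, 3 and 1. Thinning drew 2000 UMIs per cell without replacement.

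The members and lists were chosen with earlier results of these data known. Named were all members, pathway genes with 10 CPM or more in a gate, the listed markers, and up to 8 genes per gate with a correlation of 0.2 or more to the class II sum. H2-DMb2, H2-Eb2, Cd86, March1, Malat1 and Tmsb10 were named after their values were seen. Some genes that the rule takes are not reported here. The 50-UMI limit, thinned groups, the split of members by marker, the medians, the split of the 33 rich LSK cells, the H2-Ab1 ratios and the promoter motifs were also chosen after values were seen. Of the class II chains listed, 1 was not matched by symbol. Python 3.11.15, numpy 2.4.6, scipy 1.17.1, pandas 2.3.3, scanpy 1.11.5, R 4.3.3 and edgeR 4.0.16 were used, edgeR for TMM factors only; the calculation was tested on simulated data.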

Additional observations from a re-analysis of the deposited data

Results flagged for a closer look

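LSK barcodes that were not counted as cells also held class II UMIs, a signal in data outside the comparisons. The 81523 barcodes with 100 to 646 UMIs had the 7 genes at 1104 CPM (1090 to 1119), or 0.267 class II UMIs per barcode, against 968 CPM and 6.70 per cell in the cells, where 3 counts would be 0.152 CPM. The 1119 barcodes with 647 to 2109 UMIs had 1111 CPM (1053 to 1172), or 1.23 per barcode. Cd74 had a UMI in 5.93% of the shallower and 20.9% of the deeper of these barcodes, against 44.9% of LSK cells. Free RNA and cells of low depth cannot be told apart in them.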

How the results depend on the processing

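The summed class II log2 ratio of LSK over CMP, 0.28, was -0.10 with median-of-ratios factors, -0.0392 with TMM factors, 0.21 with LSK barcodes from 5000 UMIs, 0.31 without doublets and -0.0327 as a mean of per-cell CPM. It was 0.84 without cells of 10 or more class II UMIs and 1.32 without those of 50 or more, an alternative added after seeing the data. In the same order of settings, without the LSK one, CMP over GMP, 1.79, was 1.63, 1.66, 1.75, 2.06, 0.66 and 0.73, and CMP over MEP, 2.70, was 2.56, 2.58, 2.64, 2.44, 1.92 and 2.01. GMP over MEP, 0.91, was 0.38 as a per-cell mean and 1.27 and 1.28 without the cells of 10 and 50 or more. LSK over GMP, 2.07, was 1.53 and 1.62 with the factors, 1.997 from 5000 UMIs, 2.03 per cell and 1.501 without cells of 10 or more. LSK over MEP, 2.97, was 2.46, 2.54, 2.90, 2.41, 2.77 and, without those of 50 or more, 3.33. Members past the size rule in LSK over CMP, 1, were 0 with either factor and 3 and 4 without the cells of 10 and 50 or more. In CMP over GMP, 3, they were 5 with no minimum and 0 and 0 without those cells. In CMP over MEP, 5, they were 1 and 1, in GMP over MEP, 2, they were 5 with no minimum, and in LSK over GMP, 5, they were 3 without cells of 10 or more. With either factor H2-DMa no longer passed in LSK over GMP. The share of class II UMIs in cells of 10 or more, with limits of 5, 20 and 50 and without doublets, was 82.5, 24.5, 9.41 and 51.9% in LSK, 73.3, 58.4, 56.8 and 58.9% in CMP, and 30.3, 8.22, 8.08 and 10.2% in GMP; in MEP it was 34.1% with a limit of 5 and 30.9% without doublets. Of 336 single-member ratios under the alternatives, those that leave out a CMP sample not counted, 318 kept their sign, and those that did not were of LSK over CMP, H2-DMb1 in CMP over GMP and LSK over GMP, and H2-Aa in GMP over MEP. Leaving out either CMP sample left 0.28, 1.79 and 2.70, and 1, 3 and 5 members; the 2 hold the same matrix, so nothing could change and this checks nothing. No paired analysis was possible because each gate was 1 library and the 2 CMP samples were identical. Ciita, at 2 to 167 UMIs per gate, is limited by depth. The causes were not tested.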
